A study of Mus musculus with 8 samples.

Results

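The replication-dependent histone genes were examined in day 5 CUT&Tag peak lists from mouse embryonic fibroblasts (MEFs) undergoing reprogramming. Members were the protein-coding genes of the GENCODE vM21 annotation whose names begin with Hist1h, Hist2h or Hist3h, and there were 66 of them among 21938 protein-coding genes on chromosomes 1 to 19, X and Y. The Hist1 cluster on chromosome 13 held 54, the Hist2 cluster on chromosome 3 held 10 and the Hist3 cluster on chromosome 11 held 2. By type there were 6 genes for linker histone H1, 18 for H2A, 18 for H2B, 12 for H3 and 12 for H4. Each gene was given a window of its body plus 2 kb on each side. The windows overlapped, so that 66 windows joined into 25 stretches, and neighbouring genes often shared a peak.

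Histone genes of this kind are switched on when cells copy their DNA, and they supply the proteins around which new DNA is wrapped. They carry no introns as a rule, sit in clusters, and many H2A and H2B genes lie back to back and share a promoter between their starts. Their mRNAs end in a stem-loop bound by SLBP rather than in a poly(A) tail, and NPAT, which gathers at the clusters in the histone locus body, activates them at the start of S phase. OCT1, a relative of OCT4, acts on H2B promoters through an octamer element.

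In the study, MEFs carrying the Oct4-GFP (OG2) reporter were infected with retroviruses for Oct4 and a FLAG-tagged Nanog and collected on day 5. The arm labelled Nanog+Oct4 received wild-type Nanog (NanogWT), and the arm labelled NanogN70+Oct4 was taken here to be the fusion of Nanog with the part of SS18 that binds BRG1, which the study's text calls NanogBiD. The labels do not spell out N70, and the match rests on the length of the fused part as the study's text describes it. Both arms shared the reporter and Oct4, and there was no arm without Nanog. CUT&Tag, in which an antibody tethers a transposase to its target, was directed at FLAG, at BRG1 (Smarca4, the ATPase of the BAF chromatin remodeller), at H3K27ac, a mark of histone tails (active promoters and enhancers), and at H3K4me1 (enhancers and promoter flanks). Retroviral delivery gives a mixed culture, and the lists do not separate cells that did and did not change state. Replicates were merged by the authors before peak calling, so each of the 8 libraries was 1 sample per group, and how far cultures of the same arm differ from each other is not known here. Each list held 30859 to 74782 peaks, and depth was unknown. Summit height below is the number of tags stacked at the top of a peak and was not scaled to depth, so values over all protein-coding genes are given beside those of the histone genes. No test was made.

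The stretches between back-to-back H2A and H2B starts show the promoter elements and the copies that the results below turn on. All are given from the plus strand of GRCm38 (mm10), with matches to CCAAT, to TATAAA and to the octamer ATGCAAAT, on either strand, in capitals. The first is the stretch between Hist1h2bf and Hist1h2ad, at chr13:23574197-23574380, where FLAG was lower in NanogBiD and the other 3 targets had no peak over the stretch in that arm. The next lies between Hist1h2ae and Hist1h2bg, at chr13:23571221-23571395, a neighbour in the same array. The stretch between Hist1h2ac and Hist1h2bc, at chr13:23683949-23684198, had the tallest BRG1 peak of the set.

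Hist1h2ad/Hist1h2bf: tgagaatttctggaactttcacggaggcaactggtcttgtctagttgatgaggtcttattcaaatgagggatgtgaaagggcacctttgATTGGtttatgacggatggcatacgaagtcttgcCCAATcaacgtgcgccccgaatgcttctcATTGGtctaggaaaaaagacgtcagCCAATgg
Hist1h2ae/Hist1h2bg: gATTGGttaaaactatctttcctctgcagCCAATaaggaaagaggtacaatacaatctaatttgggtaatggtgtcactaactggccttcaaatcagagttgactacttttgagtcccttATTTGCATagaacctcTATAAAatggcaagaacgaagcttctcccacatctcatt
Hist1h2ac/Hist1h2bc: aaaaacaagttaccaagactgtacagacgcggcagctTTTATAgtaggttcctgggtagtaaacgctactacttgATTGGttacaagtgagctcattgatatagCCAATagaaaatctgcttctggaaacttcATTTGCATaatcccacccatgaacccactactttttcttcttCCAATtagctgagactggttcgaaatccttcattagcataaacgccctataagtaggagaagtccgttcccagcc

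Histone promoter elements can be read in each of them. CCAAT or its complement ATTGG occurred 4, 2 and 3 times in the order printed. The octamer, written here as its complement, stood once in the second and once in the third stretch and was not found in the first. The first stretch also held no TATAAA, and the other 2 held 1 each.

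Across the family these elements differed by histone type. In the 250 bases before the annotated start, CCAAT was found in all 18 H2A and all 18 H2B genes, in 9 of 12 H3 genes, in 5 of 6 H1 genes and in 4 of 12 H4 genes, against 36.0% of all protein-coding genes. TATAAA was found in 34 of 66 histone genes, 51.5%, against 11.5% of all genes. The octamer was found in 8 of 18 H2B and 7 of 18 H2A genes and in no H1, H3 or H4 gene, against 1.45% of all genes. Back-to-back genes share such matches, because their windows overlap. The AAACACA element of H1 genes was found in 4 of 6 H1 genes, against 5.66% of all genes, and GGTCC in 11 of 12 H4 genes, against 40.8%. Many histone models in the annotation start at the coding sequence, so these windows can include transcribed leader sequence. A match is a description of letters and not of binding.

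FLAG-tagged NANOG peaks lay at most histone genes in both arms. A FLAG peak overlapped 53 of 66 windows in NanogWT, against 64.5% of all protein-coding windows, and 52 of 66 in NanogBiD, against 67.0%. Within 2 kb of the start, where gene length plays no part, NanogWT gave FLAG peaks at 52 histone genes and NanogBiD at 51, 78.8% and 77.3%, against 50.4% and 51.6% of all genes. BRG1 peaks reached 47 windows in NanogWT and 49 in NanogBiD, against 60.7% and 64.5%.

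H3K27ac had 53 windows in either arm, against 63.0% of all windows in NanogWT and 66.2% in NanogBiD. Near the start it marked 53 and 52 histone genes, against 53.3% and 56.1%. By gene window H3K4me1 was the exception, with 41 windows in NanogWT and 36 in NanogBiD, 62.1% and 54.5%. The shares over all genes were 71.4% and 69.7%. Near the start, 40 and 36 histone genes had an H3K4me1 peak, 60.6% and 54.5%, close to the 58.0% and 57.2% of all genes.

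The combination of peaks differed from that over all genes in the part without H3K4me1. FLAG, BRG1 and H3K27ac peaks without an H3K4me1 peak were found in 10 histone windows in NanogWT, 15.2%, and in 15 in NanogBiD, 22.7%. Over all protein-coding windows the shares were 2.37% and 3.21%. Within 2 kb of the start, which sets gene length aside, they were 16.7% and 21.2% of histone genes and 5.46% and 5.22% of all genes. Of windows with H3K27ac, 38 of 53 histone windows also had H3K4me1 in NanogWT and 35 of 53 in NanogBiD, 71.7% and 66.0%, where all genes had 94.7% and 93.4%. Near the start the same shares were 69.8% and 67.3% of histone genes and 85.9% and 86.3% of all genes. BRG1 and FLAG went together as elsewhere, with BRG1 in 46 of 53 FLAG windows in NanogWT and in 47 of 52 in NanogBiD, 86.8% and 90.4%, against 89.4% and 93.0%.

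The FLAG peaks were shorter in NanogBiD. Peaks of both arms that touched were joined into 31 FLAG regions at the histone genes, of which 28 held a peak of each arm, 1 held a NanogWT peak only, against 15.5% of all FLAG regions, and 2 held a NanogBiD peak only, against 30.5%. In 25 of the 28 shared regions the length in peaks was smaller in NanogBiD, against 44.2% of 27891 shared regions over all protein-coding windows. The median length per shared region was 2235 bp in NanogWT and 1479 bp in NanogBiD, whereas over all protein-coding windows it was 1106 bp and 1139 bp. Within 2 kb of the start, 23 of 26 shared regions were shorter, against 39.0% of all. FLAG peaks covered 23.9% of the joined histone windows in NanogWT and 17.6% in NanogBiD, and over all protein-coding windows 3.78% and 4.46%. Those windows hold long gene bodies. Within 2 kb of the start, FLAG cover was 33.0% and 24.7% at histone genes and 16.2% and 17.5% over all genes.

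Histone FLAG regions were long in NanogWT, and regions that long were also more often shorter in NanogBiD over all protein-coding windows. Among regions with a NanogWT length from 1515 to 2662 bp, the middle range of the histone regions, all 14 histone regions were shorter in NanogBiD, and so were 60.8% of 6063 regions over all protein-coding windows. For the other targets the counts were nearer to even. BRG1 regions were shorter in NanogBiD in 10 of 25 (46.9% over all windows), H3K27ac regions in 13 of 27 (40.9%) and H3K4me1 regions in 5 of 11 (61.5%).

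**Figure D1:**
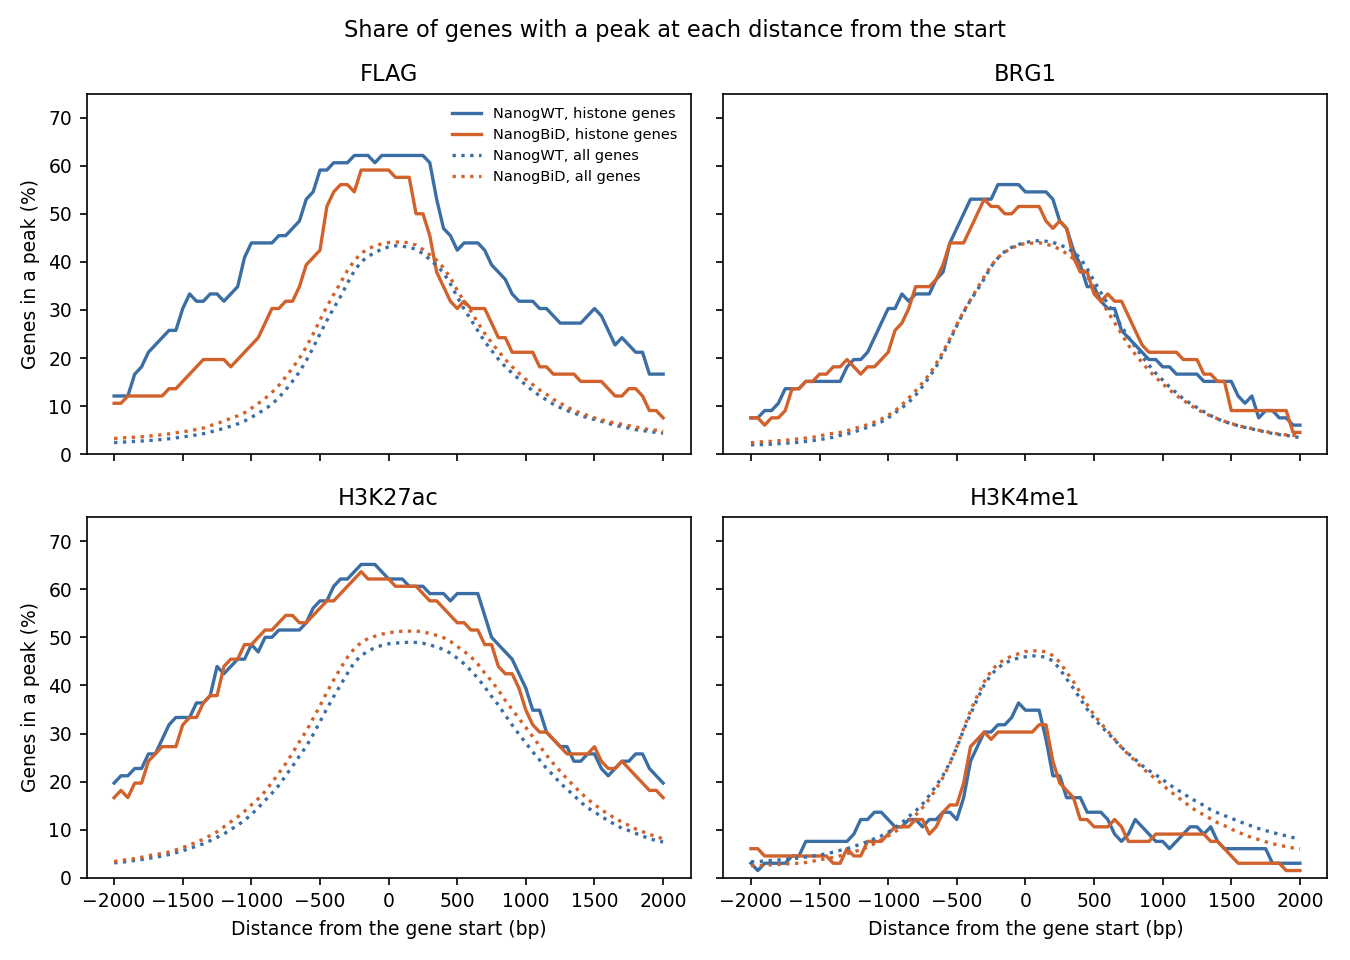
Share of genes (y axis, %) with a peak at each distance from the gene start (x axis, bp, negative before the start), for 4 targets. Solid lines are the 66 histone genes and dotted lines all protein-coding genes, blue for NanogWT and orange for NanogBiD. FLAG at histone genes keeps its level at the start, 62.1% and 59.1%, and is narrower in NanogBiD, with 43.9% and 22.7% at 1000 bp before the start.

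The plot of shares around the start shows where the length went. At the start itself FLAG peaks covered 62.1% of histone genes in NanogWT and 59.1% in NanogBiD. At 1000 bp before the start the shares were 43.9% and 22.7%, and at 1000 bp after it 31.8% and 21.2%. For all protein-coding genes the corresponding shares were 43.12% and 44.02% at the start, 7.68% and 9.56% before it, and 14.4% and 15.6% after it. BRG1 at histone genes also had a smaller share in NanogBiD at 1000 bp before the start, 30.3% and 21.2%, and not after it, 18.2% and 21.2%, where all genes had 7.56% and 8.10% before and 15.4% and 14.7% after. H3K27ac at histone genes was at 48.5% in either arm at 1000 bp before the start, and at 39.4% and 34.8% at 1000 bp after it. For H3K27ac all protein-coding genes had 13.14% and 15.16% before the start and 28.02% and 31.26% after it. After the start the share was thus lower in NanogBiD at histone genes and higher over all genes.

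The covered share was lower in NanogBiD in each of the 3 clusters. FLAG peaks covered 22.3% of the Hist1 windows in NanogWT and 16.4% in NanogBiD, 32.3% and 23.2% of the Hist2 windows, and 30.4% and 24.1% of the Hist3 windows. The number of FLAG peaks did not follow, with 23 and 25 in Hist1, 6 and 5 in Hist2 and 2 in each arm in Hist3. H3K27ac cover was 25.9% and 24.3% in Hist1, 35.3% and 38.3% in Hist2, and 24.4% and 34.5% in Hist3. Among the 6 stretches of the clusters that gaps of over 100 kb set apart, the greatest loss of FLAG cover was in the group from Hist1h2ah to Hist1h2bj (chr13:22035164-22043676), where cover went from 44.6% to 23.7%.

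Single regions show the change. At Hist1h2ae and Hist1h2bg the length in FLAG peaks was 2647 bp in NanogWT and 945 bp in NanogBiD. At Hist1h2ac and Hist1h2bc it was 3476 bp and 1959 bp, and at Hist2h4, the H4 gene of the Hist2 cluster, 2634 bp and 1453 bp. The 3 regions that were longer in NanogBiD lay nearest to Hist1h4j (2727 and 3404 bp), Hist1h1c (1416 and 2062 bp) and Hist2h2aa1 (635 and 771 bp).

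**Figure D2:**
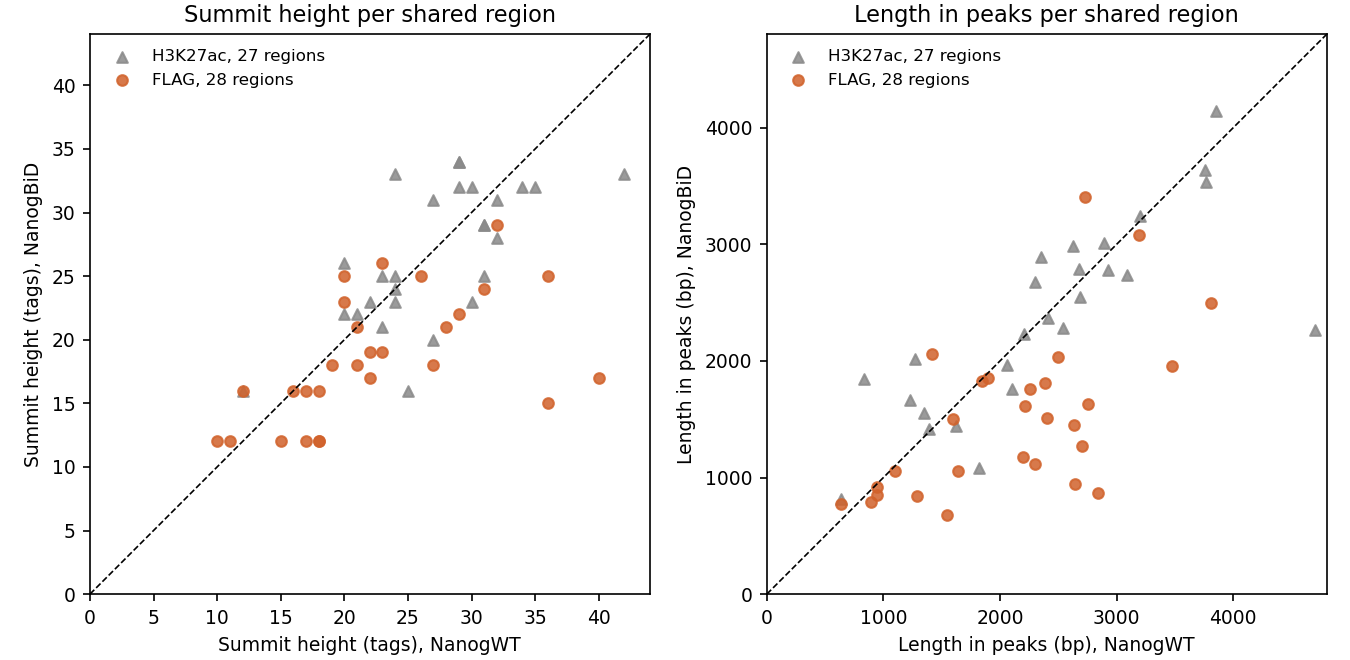
Summit height (left, tags) and length in peaks (right, bp) of each shared region at histone genes, NanogWT on the x axis and NanogBiD on the y axis. Orange circles are 28 FLAG regions, grey triangles 27 H3K27ac regions, and the dashed line marks equal values. Of the FLAG regions, 20 lie below the line for height and 25 for length, while H3K27ac regions lie on both sides.

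The FLAG summits at histone genes were also lower in NanogBiD, while most FLAG summits elsewhere were higher. The median summit height of the 28 shared regions was 21 tags in NanogWT and 18 in NanogBiD. It was lower in NanogBiD in 20 regions, higher in 6 and equal in 2, where 34.6% of all shared regions were lower and 58.1% higher. Near the start 18 of 26 were lower, against 34.7%. The median log2 ratio of NanogBiD over NanogWT was -0.22 at histone genes and 0.14 over all protein-coding windows. Among regions with a NanogWT height within the middle range of the histone regions, 17.8 to 27.3 tags, 10 of 14 histone regions and 45.4% of 8255 regions overall were lower.

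A change of at least 1.5-fold was seen downward in 5 of 28 histone regions, against 7.55% of all, and upward in 0, against 19.7%. Counted by gene window, 13 of 51 windows with a peak in both arms were at least 1.5-fold lower, against 3.90%, and 0 were higher, against 16.0%, with several windows sharing a peak. Near the start these counts were 12 of 50, against 3.79%, and 0, against 10.5%. Heights are small numbers, and in only 2 of the 28 regions did the 95% exact binomial interval of the ratio exclude 1. That interval covers counting error alone.

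The largest FLAG differences lay in the array from Hist1h1d to Hist1h3d. The region over Hist1h3e, an H3 gene at chr13:23561534-23562369, had the tallest FLAG summit of the set in NanogWT, 40 tags, and 17 in NanogBiD, a ratio of 0.425 (0.226 to 0.767). BRG1 was higher there in NanogBiD, from 14 to 21 tags, and H3K27ac was at 31 and 29. H3K4me1 had a NanogWT peak of 15 tags at Hist1h3e and none in NanogBiD.

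The region over Hist1h2bf and Hist1h2ad, whose shared stretch is printed first above, had FLAG heights of 36 and 15 tags, a ratio of 0.417 (0.212 to 0.780). Over the stretch between the starts, BRG1 had a peak of 15 tags and H3K4me1 one of 17 tags in NanogWT, and neither had one in NanogBiD. H3K27ac differed in extent and not by a lower summit. Its NanogWT peak was 4698 bp long and reached from Hist1h2ae to this stretch, and its NanogBiD peak was 2264 bp long and ended before it. In the 500 bp either side of the starts, 65.9% of the 100-base stretches at Hist1h2bf and 55.9% at Hist1h2ad were found once in the genome, and what part read mapping had in these values was not tested. At Hist1h2ae and Hist1h2bg, the adjacent pair, FLAG went from 29 to 22 tags, BRG1 from 16 to 17 and H3K27ac, with the summit of the long peak, from 29 to 34, and an H3K4me1 peak of 12 tags was found in NanogBiD alone. In the window of Hist1h3d, the H3 gene beyond Hist1h2ad, BRG1, H3K27ac and H3K4me1 were listed in NanogWT and not in NanogBiD. These were the peaks just described, with summits nearer to Hist1h2bf, Hist1h2ae and Hist1h2ad than to Hist1h3d.

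The other FLAG regions that were 1.5-fold lower differed by fewer tags. Hist1h4j went from 18 to 12, the region of Hist1h2ab and Hist1h3b from 18 to 12, and the region of Hist2h2ac and Hist2h2be from 27 to 18. Just short of 1.5-fold was the region over the starts of Hist1h1e and Hist1h2be, for H1 and H2B, with 36 and 25 tags, a ratio of 0.694. Summits were higher in NanogBiD at Hist1h4a (20 to 25 tags), Hist2h2aa1 (12 to 16), Hist1h2bp (20 to 23) and Hist1h3f (23 to 26).

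**Figure D3:**
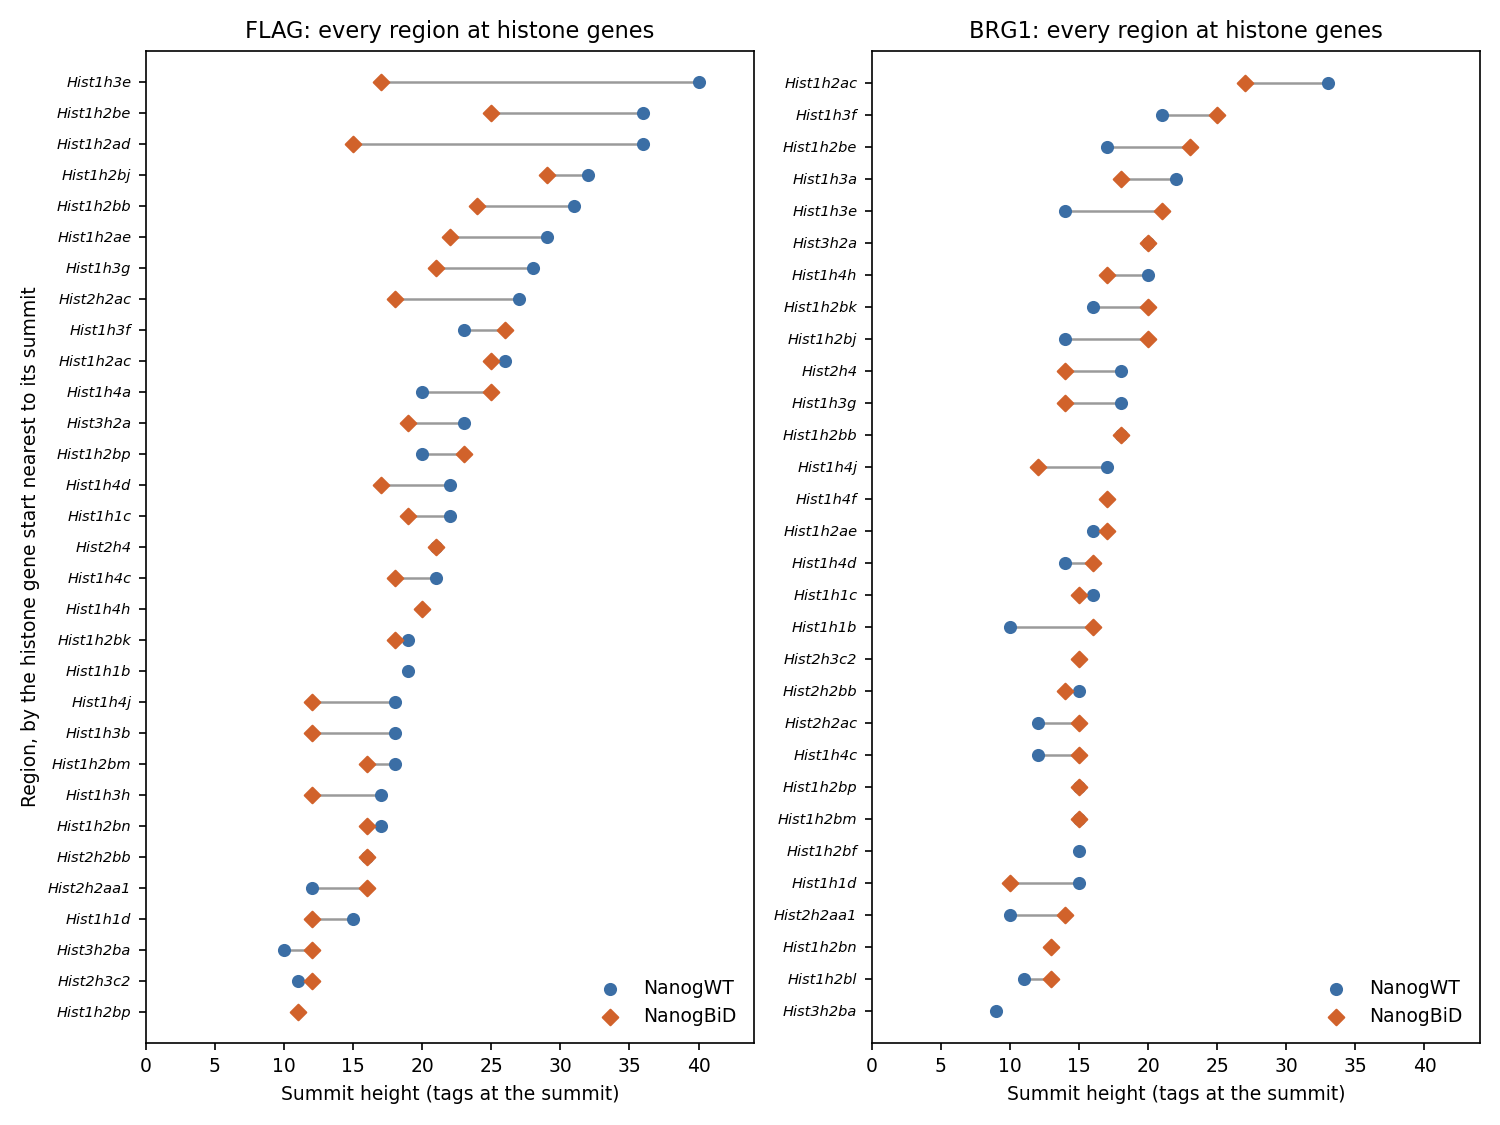
Summit height (x axis, tags) of every FLAG region (left, 31) and BRG1 region (right, 30) at histone genes, ordered by the taller arm and named by the nearest histone gene start. Blue circles are NanogWT, orange diamonds NanogBiD, a line joins the arms of a shared region, and a lone mark is a peak of 1 arm or, where the arms are equal, the orange mark over the blue. Of the shared FLAG regions 20 lie further left in NanogBiD and 6 further right, and of the BRG1 regions 9 and 12.

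A FLAG peak in only 1 arm was found at few histone genes. It was found in NanogWT alone in 2 windows, 3.03%, near the 2.81% of all windows, and in NanogBiD alone in 1, 1.52%, against 5.31%. The NanogWT windows were Hist1h1b, which had a peak of 19 tags, and Hist1h4d, reached by the edge of a NanogWT peak whose summit lay 4618 bp from its start, in a region with 22 tags in NanogWT and 17 in NanogBiD. The NanogBiD window was Hist1h4h, an H4 gene, with 20 tags, where BRG1 (20 and 17 tags) and H3K27ac (34 and 32) were present in both arms.

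BRG1 summits at these genes differed in both directions. Of 30 BRG1 regions, 25 were shared, 2 were in NanogWT alone, against 10.6% of all BRG1 regions, and 3 in NanogBiD alone, against 41.3%. Summits were higher in NanogBiD in 12, lower in 9, against 37.6% lower over all windows, and equal in 4. The median log2 ratio was 0.00, beside 0.08 over all protein-coding windows. Near the start 8 of 23 regions were lower, against 47.5%, and 8 were shorter, against 52.3%, with a median log2 height ratio of 0.00 there and over all genes. At least 1.5-fold higher were 2 regions, against 15.6% of all, and 1 was lower, against 4.79%. By window, 2 of 44 were higher, against 12.0%, and 0 were lower, against 3.82%. Within 2 kb of the start, where long genes weigh no more than short ones, they were 2 of 43, against 4.90%, and 0, against 5.33%.

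Counted by window, with shared peaks counted more than once, BRG1 was more often higher in NanogBiD. Of 44 windows with BRG1 in both arms, 25 were higher and 13 lower, with a median log2 ratio of 0.16. Over all protein-coding windows 6499 of 12690 were higher and 4992 lower, with a median of 0.05. Near the start 24 of 43 histone windows were higher and 13 lower, with a median of 0.18, and over all genes 4219 of 10124 were higher and 4792 lower, with a median of 0.00.

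The tallest BRG1 summit stood between Hist1h2ac and Hist1h2bc, with 33 tags in NanogWT and 27 in NanogBiD. FLAG there was at 26 and 25 tags and H3K27ac at 35 and 32. BRG1 was higher in NanogBiD at Hist1h1b (10 to 16 tags) and Hist1h3e (14 to 21), and at both of these FLAG was lower or absent in NanogBiD. It was lower at Hist1h4j (17 to 12) and in a region inside the long Hist1h1d model (15 to 10), 3238 bp from its start. The Hist1h1d window also reaches the taller Hist1h3e peak in NanogBiD and so counts as higher, from 15 to 21. None of the 25 shared BRG1 regions had an interval that excluded 1.

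BRG1 peaks in 1 arm had 9 to 17 tags, where shared regions had a median of 16 in either arm. In NanogWT alone they were found in 3 windows, against 2.85% of all: Hist1h2ad and Hist1h3d, which share the peak of 15 tags described above, and Hist3h2ba with 9 tags. In NanogBiD alone they were found in 5 windows, against 6.63%. These were Hist1h4f (17 tags), Hist2h2aa2 and Hist2h3c2 with a shared peak of 15 tags, and Hist1h2ak and Hist1h2bn with a shared peak of 13 tags.

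**Figure D4:**
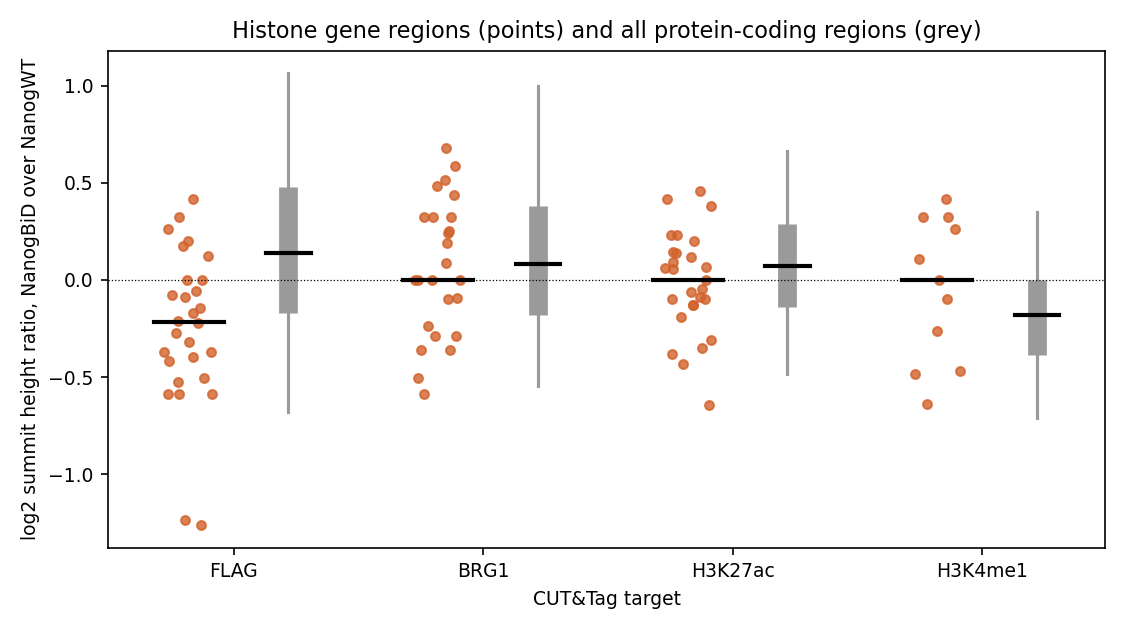
Log2 ratio of summit height, NanogBiD over NanogWT, at shared regions, by target. Orange points are histone gene regions with their median as a black line, and grey bars are all protein-coding regions, thick from the 25th to the 75th percentile and thin from the 5th to the 95th, with the median in black. Medians at histone genes are -0.22 for FLAG and 0.00 for the other targets, beside 0.14, 0.08, 0.07 and -0.18 over all protein-coding windows in the order plotted.

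H3K27ac at the histone genes was nearly the same in both arms. Of 30 regions, 27 were shared, 1 was in NanogWT alone, against 13.9% of all H3K27ac regions, and 2 were in NanogBiD alone, against 24.5%. The shared regions divided evenly, with 13 higher in NanogBiD, 13 lower, against 36.3% lower over all windows, and 1 equal. The median log2 ratio was 0.00, beside 0.07 over all windows. No region was at least 1.5-fold higher, against 7.96% of all, and 1 was lower, against 3.40%. By window, 0 of 50 were higher, against 5.54%, and 1 was lower, against 1.22%. This was Hist1h4f, an H4 gene, with 25 tags in NanogWT and 16 in NanogBiD.

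The tallest H3K27ac summit was at Hist1h1c, the gene of a common somatic H1, with 42 tags in NanogWT and 33 in NanogBiD. The greatest increase was over Hist1h2ag and Hist1h2bj, from 24 to 33 tags, where BRG1 went from 14 to 20, and FLAG was at 32 and 29. In NanogWT alone H3K27ac was found in 3 windows, against 1.55%, which were Hist1h3d, Hist1h2ap and Hist1h4n. In NanogBiD alone it was found in 3, against 4.69%, which were Hist1h2ab and Hist1h3b with 18 tags and Hist3h2ba with 16.

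H3K4me1 peaks at the histone genes were low, short and often present in 1 arm. In NanogWT alone they were found in 14 windows, against 4.63% of all, and in NanogBiD alone in 9, against 2.93%. By region, 11 of 32 were shared, 13 were in NanogWT alone, against 33.2% of all H3K4me1 regions, and 8 in NanogBiD alone, against 15.9%. The one-arm peaks had 10 to 20 tags. The median length per shared region was 875 bp in NanogWT and 833 bp in NanogBiD, and all protein-coding windows had 1180 and 1071 bp. H3K4me1 peaks covered 7.34% and 6.70% of the joined histone windows, less than a FLAG or H3K27ac list did.

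Shared H3K4me1 regions were higher in NanogBiD in 5 and lower in 5, against 66.2% lower over all windows. At least 1.5-fold higher were 0, against 0.954%, and lower was 1, against 11.1%. By window the counts were 0 and 1 of 27, against 0.813% and 7.26%. The lower one was at Hist1h4j, from 28 to 18 tags, which had the tallest H3K4me1 summit of the set. In NanogWT alone were peaks at Hist1h4d (19 tags), Hist1h2ad and Hist1h2bf (17), Hist2h4 (16) and Hist1h1e (15). In NanogBiD alone were peaks at Hist1h1c (14 tags) and at Hist1h2ae and Hist1h2bg (12). The Hist1h4i window also had a peak in NanogBiD alone, of 20 tags, with its summit 119 bp before the Hist1h2bj start. The Hist1h2bj window held a separate NanogWT peak of 14 tags.

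By histone type, median FLAG heights were lower in NanogBiD in each of the 5. The median log2 FLAG ratio over windows with a peak in both arms was -0.22 for H1, -0.28 for H2A, -0.14 for H2B, -0.37 for H3 and -0.14 for H4. Every type had a median FLAG height of 20 to 23 tags in NanogWT and 16 to 20.5 in NanogBiD. Genes of different types share many of these peaks, above all H2A and H2B genes, so the values of the types are not independent. The H1 median was that of Hist1h1t, whose peak had its summit nearest to the Hist1h4c start. The H4 median was that of Hist1h4i, whose peak had its summit nearest to the Hist1h2bj start. H4 genes had FLAG at 6 of 12 windows in either arm, where all protein-coding windows had 64.5% and 67.0%. Within 2 kb of the start, where gene length plays no part, H4 genes lay nearer to all genes. They had FLAG at 5 of 12 in NanogWT and 6 of 12 in NanogBiD there, against 50.4% and 51.6%. Among the 5 H4 genes without FLAG in either arm were Hist1h4m and Hist1h4n. Their windows are mostly repeated elsewhere in the genome, so that reads there may not have been counted. H3 genes had FLAG at 11 of 12 windows and H1 genes at 6 of 6 in NanogWT and 5 of 6 in NanogBiD. Near the start H3 genes had it at 11 of 12 in either arm, and H1 genes at 6 of 6 and 4 of 6.

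By cluster, lower FLAG heights prevailed in Hist1, where 32 of 39 windows were lower and 7 higher, with a median log2 ratio of -0.22. Over all protein-coding windows 4217 of 13525 were lower and 8377 higher, with a median of 0.15. In Hist2, 3 of 10 windows were lower, 4 higher and 3 equal, and the median was 0.00. Hist3 has 2 genes, Hist3h2a (23 and 19 tags) and Hist3h2ba (10 and 12). The difference between clusters was not tested.

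Of the 12 back-to-back H2A and H2B pairs, whose starts lay 176 to 306 bp apart, a FLAG peak covered the stretch between the starts in 9 in each arm. BRG1 did so in 8 in each arm, H3K27ac in 9 and 8, and H3K4me1 in 6 in each. The 3 pairs without FLAG were Hist1h2ao/Hist1h2bq, Hist1h2ap/Hist1h2br and the testis-specific pair Hist1h2aa/Hist1h2ba. With or without an octamer in the 250 bases before the start, median FLAG height was lower in NanogBiD, at 26 and 18 tags for 13 histone genes with it and 21 and 18 for those without.

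In all, 9 of 66 histone genes had no peak in any of the 8 lists, 13.6%, against 22.1% of all protein-coding genes. They fall into 2 kinds by sequence. The authors removed reads of low mapping quality, so a window that is repeated elsewhere in the genome can appear empty. The share of 100-base stretches of a window found once in the genome had a median of 91.4% over the histone genes. It was under 50% in 6 windows, at Hist1h2br (1.30%), Hist1h2bq (1.34%), Hist1h2ao (6.57%), Hist1h2ap (8.40%), Hist1h4m (9.92%) and Hist1h4n (34.5%). Of these, Hist1h2ap and Hist1h4n shared 1 H3K27ac peak of 15 tags in NanogWT, and the other 4 windows had no peak.

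The copies can be read from the sequence. The stretches between the starts of Hist1h2ao and Hist1h2bq and of Hist1h2ap and Hist1h2br are printed without 50 bases at each end, at chr13:21810248-21810414 and chr13:21833558-21833692. Aligned on opposite strands, all 235 bases of the full Hist1h2ap/Hist1h2br stretch were found unchanged in the longer Hist1h2ao/Hist1h2bq stretch. No other pair of the 12 had a partner above 52.9% when at least 100 bases were aligned without gaps. Such an alignment misses copies that differ by inserted or lost bases. Runs of letters in the Hist1h2ad/Hist1h2bf stretch printed above also occur, in the same order, in the Hist1h2ao/Hist1h2bq stretch. At Hist1h2ao, Hist1h2bq, Hist1h2ap and Hist1h2br a missing peak cannot be read as a missing target.

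Hist1h2ao/Hist1h2bq: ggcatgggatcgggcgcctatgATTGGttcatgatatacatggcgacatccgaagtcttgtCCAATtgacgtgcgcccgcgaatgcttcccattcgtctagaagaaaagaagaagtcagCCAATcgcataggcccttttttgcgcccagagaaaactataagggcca
Hist1h2ap/Hist1h2br: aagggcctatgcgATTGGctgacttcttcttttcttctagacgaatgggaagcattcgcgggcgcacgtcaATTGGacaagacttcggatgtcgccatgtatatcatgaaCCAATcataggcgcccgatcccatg

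The other 5 genes without a peak, Hist1h4k, Hist1h3i, Hist1h4b, Hist1h2ba and Hist1h2aa, had windows that were over 90% unique. Hist1h2ba and Hist1h2aa encode histones made in the testis. Their shared stretch, again without 50 bases at each end, lies at chr13:23934207-23934411 and is shown because it held the same elements as the occupied promoters above, an octamer among them, and no peak.

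Hist1h2aa/Hist1h2ba: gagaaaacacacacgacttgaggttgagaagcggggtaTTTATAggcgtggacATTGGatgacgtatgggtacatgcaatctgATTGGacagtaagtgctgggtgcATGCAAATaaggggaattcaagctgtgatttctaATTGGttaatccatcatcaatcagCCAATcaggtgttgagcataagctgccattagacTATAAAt

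Hist1h1t, the testis form of H1, did have peaks in its window. They were those of Hist1h4c next to it, with summits nearest to the Hist1h4c start, FLAG at 21 and 18 tags, BRG1 at 12 and 15 and H3K27ac at 20 and 26.

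**Figure D5:**
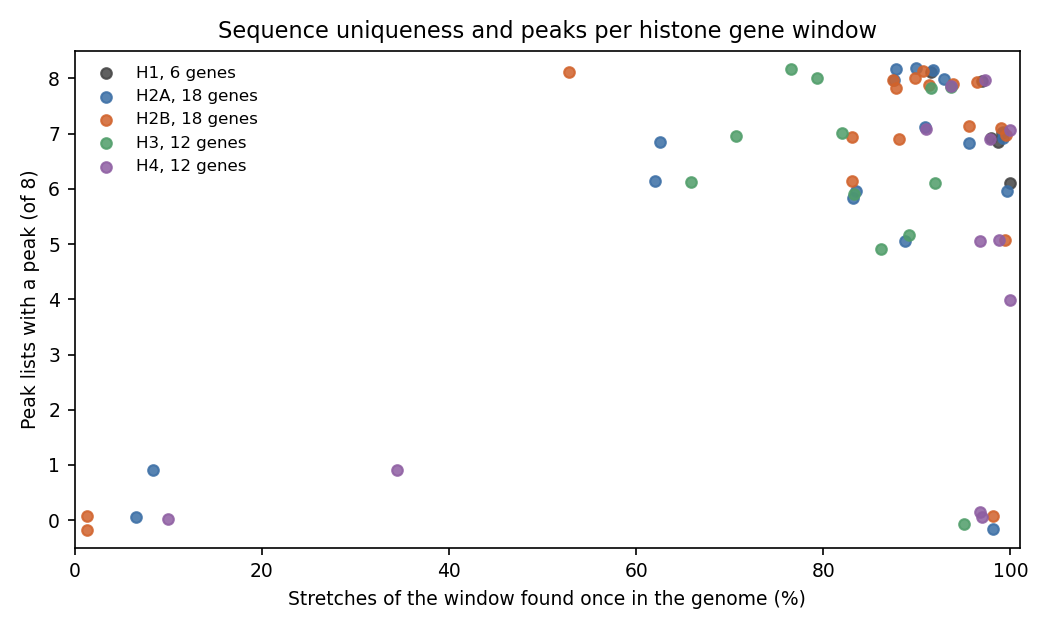
Number of the 8 peak lists with a peak in a histone gene window (y axis, points shifted slightly up or down so that they can be told apart) against the share of its 100-base stretches found once in the genome (x axis, %), coloured by histone type. The 6 windows under 50% have 0 or 1 list, and 5 windows with no peak lie above 90%.

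Other genes of the pathway were counted in the same way. At 12 histone genes outside the 3 clusters, most of them for replication-independent forms such as H2afz, H3f3a and H3f3b, FLAG was present in both arms at 11, higher in NanogBiD in 8 and lower in 2, with a median log2 ratio of 0.13. Over all protein-coding windows 8377 of 13525 were higher, with a median of 0.15, so this list lay near the overall value. H2afz, for the variant H2A.Z, went from 31 to 41 tags, and H2afx, for the DNA damage variant H2A.X, from 16 to 22. Hist4h4, an H4 gene of the replication-dependent kind that was placed in this list, was at 18 and 19 tags. The difference between the lists was not tested.

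At 12 genes for factors that switch on histone genes or process their mRNAs, FLAG was present in both arms at all, higher in 6 and lower in 6, with a median of 0.01, beside 0.15 over all protein-coding windows. Npat was at 31 and 30 tags for FLAG, 25 and 23 for BRG1 and 35 and 39 for H3K27ac. Slbp was at 30 and 27, 28 and 24, and 54 and 54. At least 1.5-fold higher were 2 of the 12, against 16.0% of all protein-coding windows. These were Lsm10, a subunit of the particle that cuts histone mRNAs, with 14 and 23 FLAG tags, and Coil, the gene of the Cajal body protein coilin, with 13 and 24.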

How the data were processed

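Members and gene lists were chosen with earlier results of these data known. According to the study's methods section, the authors trimmed reads with Trim Galore 0.6.4 and aligned them to mm10 with Bowtie2 2.4.5. They removed reads of low mapping quality with SAMtools 1.16.1, merged replicates and called peaks with MACS 1.4.2. In the deposited peak lists the score is the caller's significance, with a lowest value of 50.0. The deposited summit files give, as signal, how many tags were stacked at each summit. The authors scaled neither to depth, and the number of tags per library was not given in the sources used here. The labels and the methods state different cell numbers per sample. The labels give the H3K4me1 antibody without its last digit, and the sample titles give it in full.

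Peaks and summits were joined by name. A window had a peak when at least 1 bp overlapped, and its height was that of the tallest peak reaching it. Peaks of both arms that overlapped or touched were joined into regions, and the length in peaks of a region was the summed length of the peaks of an arm. Height ratios carry 95% exact binomial intervals for counting error only. A difference of 1.5-fold was the call, without a test, since each group had 1 library. Named genes were, for each target, the 3 highest and 3 lowest ratios, the tallest summit of each type, members with a peak in 1 arm, members with no peak and testis-specific members. Further genes and regions, among them the single regions given for length, were picked after their values were seen. Sequence uniqueness was the share of 100-base stretches of a window found once on both strands of GRCm38. Window counting was tested on simulated peaks in 25 joined windows, of which 0 were given a wrong class. Python 3.11.15 with numpy 2.4.6, pandas 2.3.3 and scipy 1.17.1 was used. As alternatives, peaks were limited to scores from 100 up, to the top 20000 per list by score, or to a height of at least 15 tags, and windows were changed to 2 kb either side of the start, to the gene body plus 1 kb, or to require a summit inside. Results by region and by length were added after the data had been seen.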

Additional observations from a re-analysis of the deposited data

How the results depend on the processing

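No paired analysis was possible because replicates had been merged into 1 library per arm and target before deposit. Of 72 comparisons of window counts and median ratios with an alternative, 59 did not turn to the opposite direction and moved by at most 1.5 times for a count or, for a median, stayed within the 95% order-statistic interval of the main value. These limits are wide. FLAG windows numbered 36 in either arm with a score of at least 100. The median log2 BRG1 ratio by window lay between 0.00 and 0.25, and that of H3K4me1 went to -0.47 among the top 20000 peaks. With a score of at least 100, windows with a peak numbered 29 for BRG1 in NanogWT, and 11 and 13 for H3K4me1 in NanogWT and NanogBiD. When lists were limited to their top 20000 peaks by score, they numbered 23 and 16 for FLAG, 30 and 22 for BRG1, and 5 and 13 for H3K4me1. With a height of at least 15 tags they numbered 31 for BRG1 in NanogWT, and 23 and 14 for H3K4me1, and the median log2 H3K4me1 ratio of member windows turned from -0.10 to 0.26. These filters leave fewer peaks by construction.

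The FLAG results by region kept their direction under each filter. Lower summits were found in 12 of 17 shared regions with a score of at least 100, in 5 of 8 among the 20000 highest-scoring peaks and in 16 of 21 with at least 15 tags, where 35.5%, 33.9% and 36.6% were lower over all protein-coding windows. Less length in peaks was found in 15, 8 and 20 of them. Over all protein-coding windows, 46.3%, 45.9% and 47.9% of shared regions were shorter. Depth limits each height, most summits had fewer than 30 tags, and libraries of unequal depth cannot be told apart from arms.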
